A study of Homo sapiens with 2 samples.

Results

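The genes described here encode the subunits of the nuclear RNA polymerases I, II and III and of the Mediator complex. They were taken from the deposited expression table as protein-coding rows whose symbol begins with POLR1, POLR2 or POLR3 and a further letter, or is MED with a number and at most 1 more letter. The rule found 61 rows with 60 symbols among 19951 protein-coding rows, of 58735 rows in all. They comprised 5 POLR1 rows, 16 POLR2 rows, 10 POLR3 rows and 30 Mediator rows. Of these 61 rows, 56 had a mean over the libraries of 1 FPKM or more and are called measured. FPKM counts sequenced fragments for each kilobase of a gene's exons, after scaling for library size.

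Polymerase I copies the large ribosomal RNA genes in the nucleolus, polymerase II makes mRNA, and polymerase III makes transfer RNA, 5S ribosomal RNA and other small RNAs. Each enzyme has its own pair of large subunits that form the catalytic cleft, and the 3 enzymes hold a set of small subunits in common. Mediator is a large co-activator that passes signals from DNA-bound transcription factors to polymerase II. Its head and middle modules contact the polymerase, its tail contacts activators, MED14 runs through it as a backbone, and a detachable kinase module regulates its binding to the polymerase.

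RNA came from A2780, an established human ovarian cancer cell line, and its mRNA was captured by poly(A) tail and sequenced. There was 1 library labelled shControl, described as wild type in the genotype field and as empty-vector control in the design text. There was 1 library labelled shJAM3, from cells with stable knockdown of JAM3, a junctional adhesion molecule. The labels do not say whether either line is a single clone or a pool, and the titles speak of sh constructs where the design text speaks of siRNA. In bulk RNA, a lower level in each cell and a smaller share of cells with a transcript cannot be told apart.

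Gene-assigned fragments numbered 15570262 for shControl and 16455079 for shJAM3. For JAM3 itself 18 fragments (0.215 FPKM) were found in shControl against 14 (0.154 FPKM) in shJAM3. The ratio was 0.716 with a 95% counting interval of 0.330 to 1.52, so its knockdown was not detectable at this depth. The epithelial keratins KRT8 and KRT18 lay between 139 and 165 FPKM, whereas EPCAM and CDH1 were below 1 FPKM in both libraries. Of 4 markers of Müllerian tissue and ovarian carcinoma, only SOX17 reached 1 FPKM in both. No marker of blood, endothelium or fibroblasts, 9 in all, reached 1 FPKM in both libraries, and PTPRC had no fragment in either. The summed level of the 3 blood markers was 2.28 FPKM in shControl against 0.805 in shJAM3, most of it from CD14.

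With 1 library in each group there was no test of the conditions, and every difference below is one between these 2 libraries. Differences are given as log2((FPKM + 1) in shJAM3 / (FPKM + 1) in shControl), here called the log2 ratio, and a fixed size of 1.5-fold on that scale was used to call a gene. Ratios of FPKM without the added 1 are given with exact 95% intervals from the fragment numbers. These cover counting error only, and they lay above 1 for 34.5% and below 1 for 36.8% of the 10499 measured protein-coding genes. An interval that excludes 1 was therefore common.

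The polymerase genes lay mostly on the higher side in shJAM3, and the Mediator genes were split. Of 28 measured POLR genes, 22 had a log2 ratio above 0, against 49.4% of all measured protein-coding genes. Of 28 measured Mediator genes, 15 lay above 0 and 13 below. The median log2 ratio was 0.25 for POLR1, 0.23 for POLR2, 0.07 for POLR3 and 0.02 for Mediator, against -0.01 for all measured protein-coding genes. The difference between these medians was not tested, as there were no replicate libraries. Counting intervals lay above 1 for 25 of the 56 measured members and below 1 for 12, against 34.5% and 36.8% of all measured genes.

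Few members were far from 0. Past the size of 1.5-fold, 2 of 56 were higher in shJAM3, MED27 and POLR2K, and 1 was lower, MED12. Among all measured protein-coding genes 5.12% were higher and 9.3% lower by this rule, so members past it were no more frequent than in the background. None reached 2-fold on this scale in either direction, where the background was 0.391% higher and 1.41% lower. The log2 ratio at 1.5-fold is 0.585. On the higher side the nearest member past it was POLR2K, well beyond it at 0.90, and just short of it lay POLR1E at 0.579 and POLR1B at 0.56. On the lower side the nearest were MED12 at -0.74, past it, and MED15 at -0.57, short of it. With 0.1 FPKM added in place of 1, 7 members were past 1.5-fold on the higher side and 3 on the lower, with backgrounds of 8.98% and 12.3%.

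**Figure D1:**
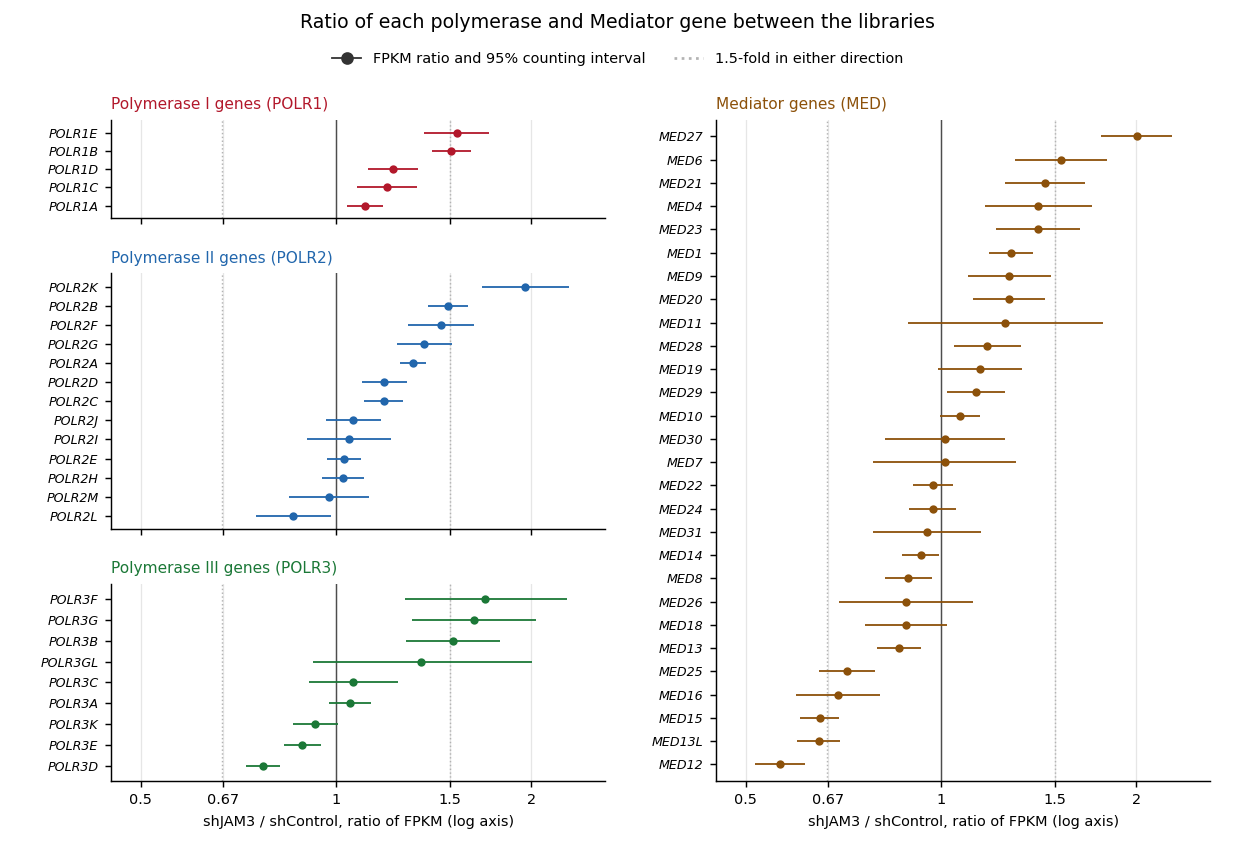
Ratio of FPKM in shJAM3 to shControl (log axis) for measured members, with 95% counting intervals as bars and dotted lines at 1.5-fold in either direction. All 5 POLR1 genes lie above 1, POLR3 genes lie on both sides, and MED27 (2.00) and MED12 (0.564) mark the ends of the range.

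All 5 polymerase I genes were higher in the shJAM3 library. POLR1A, which encodes the largest subunit, was at 8.30 FPKM in shControl against 9.19 in shJAM3, a ratio of 1.11 (1.04 to 1.18). POLR1B, the second-largest subunit, was at 13.8 and 20.8 FPKM (ratio 1.51, 1.41 to 1.61). POLR1E, a subunit of the heterodimer that aids initiation and elongation by this enzyme, was at 12.3 and 18.8 FPKM (ratio 1.53, 1.37 to 1.72). The large pair thus differed unequally between the libraries, as the intervals of POLR1A and POLR1B do not overlap. POLR1B (ENSG00000125630) lies on the plus strand of chromosome 2 at 112541915 to 112577150, and POLR1E (ENSG00000137054) on the plus strand of chromosome 9 at 37485935 to 37503697, both in GRCh38. Neither shares exon bases with another annotated gene.

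POLR1C and POLR1D form a dimer that polymerases I and III both contain. POLR1C was at 7.25 FPKM in shControl against 8.70 in shJAM3, a ratio of 1.20 (1.08 to 1.33), and POLR1D was at 5.03 and 6.17 FPKM (ratio 1.22, 1.12 to 1.34). Their intervals overlap almost wholly. Other genes cover 18.2% of the POLR1C exon bases, and how fragments from there were counted is not stated.

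As deposited, polymerase I subunits that carry other symbols in the table were on the same side. CD3EAP, the partner of POLR1E in its heterodimer, was at 1.53 and 2.57 FPKM (ratio 1.68, 1.28 to 2.21). Of its exon bases 45.1% lie also in other genes, mostly ERCC1. TWISTNB was at 5.90 and 6.18 FPKM and ZNRD1 at 5.58 and 6.30, and the counting intervals of both included 1. Centred on genes of like GC content, as described further on, CD3EAP was at 0.65, ZNRD1 at 0.08 and TWISTNB at -0.21. With these 3 genes added, the median log2 ratio of polymerase I, not centred, was 0.24.

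The general factors of polymerase I stood closer to 0. Of 7 measured, 4 lay above 0 and 3 below, with a median of 0.03 and none past 1.5-fold. Centred on GC content, their median was 0.12, near the 0.16 of the POLR1 genes by the same measure. TAF1B, a subunit of the promoter-binding factor SL1, had a log2 ratio of 0.52 and TTF1, the termination factor, 0.32. UBTF, which binds and opens the ribosomal RNA gene, was at 17.6 and 17.9 FPKM, and RRN3, which makes the enzyme competent to initiate, was at 16.2 and 15.9 FPKM.

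Among the polymerase II genes 11 of 13 measured were higher in shJAM3, 7 of them with an interval above 1. Of all measured protein-coding genes 49.4% were higher and 34.5% had an interval above 1. POLR2A, the largest subunit, whose tail of repeated heptads is phosphorylated through the transcription cycle, was at 25.4 FPKM in shControl against 33.4 in shJAM3. Its ratio was 1.31 (1.26 to 1.38), on 3264 and 4659 fragments. POLR2B, the second-largest subunit, was at 14.3 and 21.2 FPKM (ratio 1.49, 1.39 to 1.60). POLR2G, which with POLR2D forms the stalk, was at 23.5 and 32.2 FPKM (ratio 1.37, 1.24 to 1.51), while POLR2D was at 13.9 and 16.5 FPKM (1.19, 1.10 to 1.29). All 7 subunits found in polymerase II alone lay above 0, with log2 ratios from 0.06 to 0.54. POLR2C, an assembly subunit, had a ratio of 1.18, and the intervals of POLR2I and POLR2J included 1. Other genes cover 79.6% of the POLR2I exon bases, and how fragments there were counted is not stated, so its value is uncertain.

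The 5 subunits common to the 3 polymerases ranged in log2 ratio from -0.21 to 0.90, the widest range of any role group here. POLR2K, a small zinc-binding subunit, was at 9.36 FPKM in shControl against 18.3 in shJAM3, a ratio of 1.96 (1.68 to 2.29), on 246 and 523 fragments. POLR2F was at 4.36 and 6.33 FPKM (ratio 1.45, 1.29 to 1.63). POLR2E and POLR2H were both at a ratio of 1.03, with 28.1 and 28.9 FPKM for POLR2E and 27.6 and 28.3 for POLR2H. POLR2L, another small zinc-binding subunit, had the lowest ratio of the measured POLR2 genes, at 26.2 and 22.5 FPKM (ratio 0.859, 0.751 to 0.982). Only POLR2L of the 5 lay below 0. Centred on genes of like GC content, as described further on, POLR2L was at 0.10, POLR2E at 0.35 and POLR2H at 0.12. By that measure all 5 lay above 0. POLR2L shares 22.5% of its exon bases, mostly with CD151. POLR2M, which encodes a protein that binds polymerase II and limits its access by other factors, was at 3.81 and 3.72 FPKM, with 21.1% of its exon bases in other genes.

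POLR2J has close copies, POLR2J2 and POLR2J3, and these were the POLR2 rows below 1 FPKM. POLR2J was at 37.3 and 39.7 FPKM, POLR2J2 had 1 fragment in shControl and 5 in shJAM3, and the 2 rows of POLR2J3 had 23 and 24 fragments and 9 and 11. Annotated transcripts of the 3 were compared over 348 bases from the start codon on. The first 311 were taken as the part before POLR2J and POLR2J3 first differ, so their identity there is by choice. Over that part POLR2J2 differed from either at 2 positions. The stretch that holds both positions is shown because it is what sets the copies apart there, with coding bases 61 to 120 in GENCODE 29 and capitals at the positions where the 3 differ.
POLR2J: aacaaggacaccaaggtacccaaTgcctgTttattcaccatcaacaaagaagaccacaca
POLR2J2: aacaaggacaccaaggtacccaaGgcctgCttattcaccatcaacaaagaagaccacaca
POLR2J3: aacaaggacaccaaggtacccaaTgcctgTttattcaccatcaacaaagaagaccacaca
Of the 31-base words in annotated POLR2J transcripts, 43.1% also occur in transcripts of another gene, and 98.5% of those of POLR2J2 do. The division of fragments among the 3 symbols is therefore uncertain, and no ratio is drawn for the copies.

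**Figure D2:**
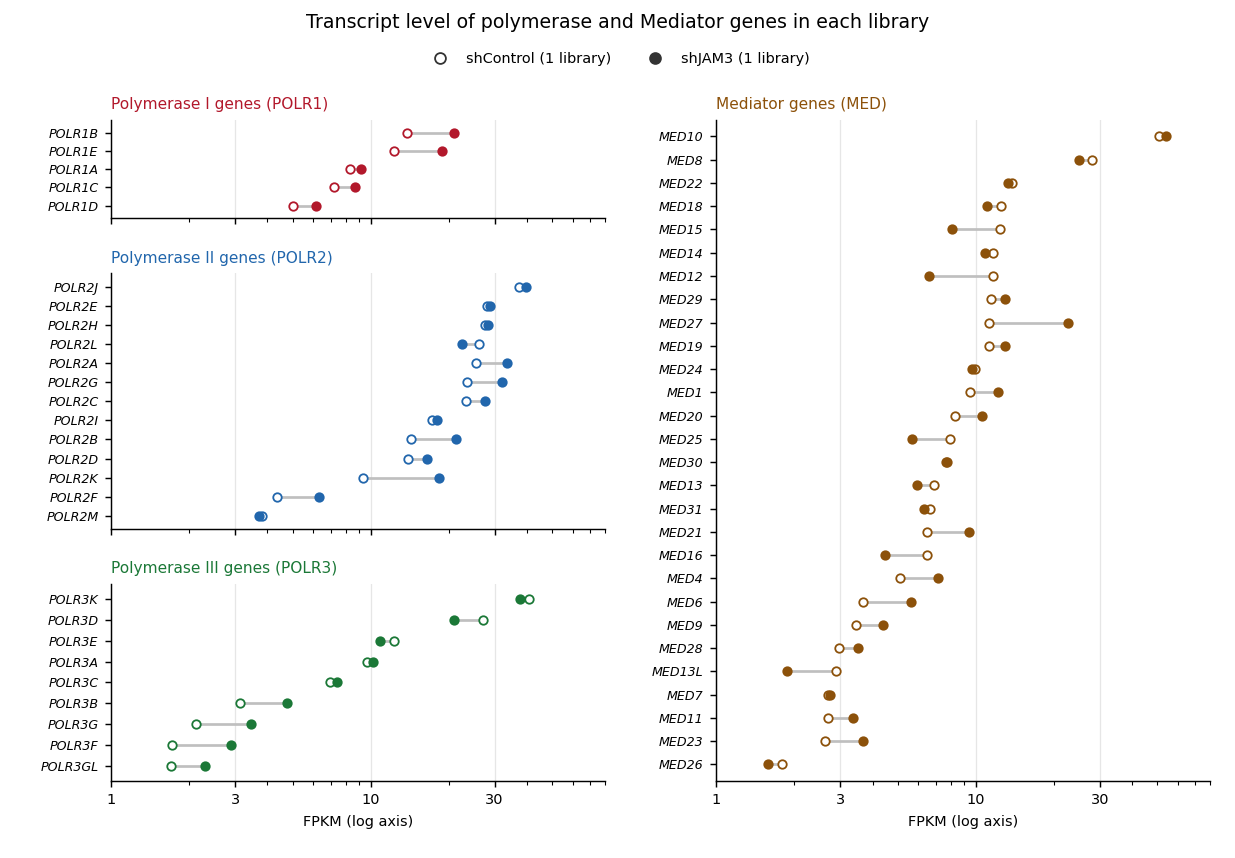
FPKM (log axis) of measured members in shControl (open circles) and shJAM3 (filled circles), 1 library each, ordered within each complex by the shControl level. Subunits of 1 complex span a wide range, for Mediator from 1.78 (MED26) to 50.6 (MED10) FPKM in shControl, and the circles of most genes lie close together.

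Factors that bring polymerase II to promoters were on the higher side more often than not. Of 33 listed general factors 30 were measured, 22 above 0 and 8 below, with a median log2 ratio of 0.24 against -0.01 for all measured genes. Past 1.5-fold were 2 of 30 on the higher side, TAF9 and TAF9B, and 1 on the lower, TAF10, where 5.12% and 9.3% of all measured genes were. These encode subunits of TFIID, which binds core promoters. TAF9 was at 10.8 and 20.8 FPKM (ratio 1.92, 1.71 to 2.16), its paralogue TAF9B at 2.33 and 4.36 (1.87, 1.46 to 2.40), and TAF10 at 4.79 and 2.17 (0.453, 0.384 to 0.534). TAF9 shares 27.2% of its exon bases, mostly with AK6, and TAF10 51.2%, mostly with ILK. Centred on GC content, TAF9B was at 0.42 and no longer past 1.5-fold. TBP, the TATA-binding protein, had a log2 ratio of 0.44.

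Pausing and elongation factors went both ways. Of 30 listed 29 were measured, 16 above 0 and 13 below, with a median of 0.03. Past 1.5-fold were 2 of 29 on the higher side, LARP7 and SUPT16H, and 1 on the lower, where 5.12% and 9.3% of all measured genes were. LARP7, which stabilises the 7SK RNA that holds back P-TEFb, was at 1.56 and 3.67 FPKM (ratio 2.35, 1.85 to 3.00). SUPT16H, a subunit of the histone chaperone FACT, was at 19.1 and 31.4 FPKM (1.65, 1.56 to 1.74). Centred on GC content, LARP7 was at 0.64, and SUPT16H, at 0.53, was no longer past 1.5-fold. SUPT4H1 had no fragment in either library, and 89.9% of its exon bases are shared with other annotated genes.

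**Figure D3:**
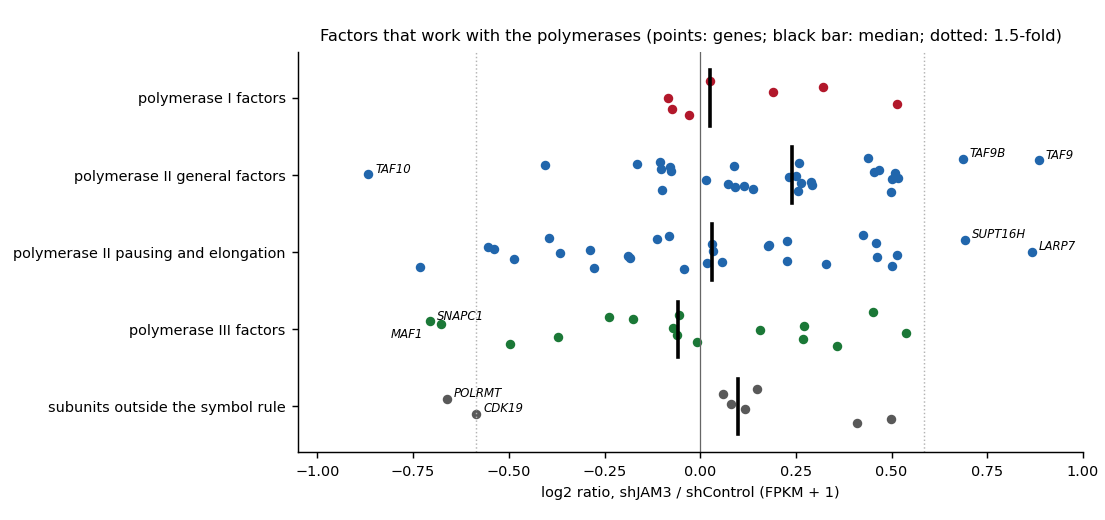
Log2 ratio (shJAM3 over shControl, FPKM + 1) for the measured genes of 5 lists of factors and of further subunits, with black bars at list medians and dotted lines at 1.5-fold. The median of polymerase II general factors is 0.24, and the other 4 lists lie between -0.06 and 0.10. Centred on GC content (not plotted), the medians of polymerase II general factors and polymerase III factors are both 0.10.

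Polymerase III genes divided into 6 above 0 and 4 below. POLR3A, the largest subunit, was at 9.68 FPKM in shControl against 10.2 in shJAM3, a ratio of 1.05 whose interval of 0.974 to 1.13 included 1. POLR3B, the second-largest, was at 3.15 and 4.76 FPKM (ratio 1.51, 1.28 to 1.79). As for polymerase I, the second-largest subunit had the higher ratio of the large pair, and here too the intervals do not overlap. POLR2B also had a higher ratio than POLR2A, but centred on GC content POLR2A was at 0.47 and POLR2B at 0.35. After centring, POLR1B (0.46) stayed above POLR1A (0.13) and POLR3B (0.32) above POLR3A (-0.01). POLR3F, one of 3 subunits of a subcomplex that acts in initiation, was at 1.71 and 2.91 FPKM (1.70, 1.28 to 2.27), and POLR3C, another, at 6.97 and 7.41 (1.06, 0.908 to 1.24).

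The third position of that subcomplex is filled by either of 2 paralogues, POLR3G, known from stem and tumour cells, and the broadly expressed POLR3GL. POLR3G was at 2.12 FPKM in shControl against 3.46 in shJAM3, a ratio of 1.63 (1.31 to 2.04). POLR3GL was at 1.70 and 2.30 FPKM (ratio 1.35, 0.920 to 2.00), on 47 and 69 fragments. Per deposited exon length, POLR3G was thus the higher of the paralogues in both libraries, while the intervals of their ratios overlap. These lengths are 4019 bases for POLR3G and 1799 for POLR3GL, against 3285 and 1165 for their longest coding transcripts. The order in shControl depends on which lengths are used and is uncertain. Other genes cover 21.2% of the POLR3GL exon bases.

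On the lower side POLR3D was at 27.1 and 20.9 FPKM (ratio 0.771, 0.726 to 0.819). Its partner POLR3E, with which it forms a heterodimer, was at 12.3 and 10.9 FPKM (ratio 0.887, 0.830 to 0.948). POLR3K, which aids termination, was at 40.6 and 37.7 FPKM (0.930, 0.857 to 1.01). CRCP, a stalk subunit that carries another symbol, was at 12.6 and 13.3 FPKM. POLR3D, POLR3E and POLR3K also had the 3 highest shControl levels of the POLR3 genes. When the level limit was 5 FPKM in place of 1, the POLR3 median was -0.13 over 6 genes.

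Of 16 polymerase III factors 6 lay above 0 and 10 below, with a median log2 ratio of -0.06. Centred on GC content, 10 lay above 0 and 6 below, with a median of 0.10. SNAPC1, of the complex that reads small nuclear RNA promoters, was at 3.73 and 1.90 FPKM (0.509, 0.385 to 0.669), with 21.3% of its exon bases in other genes. MAF1, the repressor of polymerase III, was at 82.0 and 51.0 FPKM (0.621, 0.587 to 0.657). These 2 of 16 were past 1.5-fold on the lower side and 0 on the higher, where 9.3% and 5.12% of all measured genes were, so the list was near the background. Centred on GC content, SNAPC1 was at -0.97, and MAF1, at -0.37, was no longer past 1.5-fold.

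In Mediator the members furthest from 0 stood in different modules. MED27 was at 11.3 FPKM in shControl against 22.6 in shJAM3, on 365 and 793 fragments, and its ratio of 2.00 (1.77 to 2.27) was the highest of the measured members. MED27 (ENSG00000160563) lies on the minus strand of chromosome 9 at 131860107 to 132079908 and shares no exon bases with another gene. Of its 31-base words, 30.2% also occur in the processed pseudogene CRSP8P on chromosome 5, which was at 3.76 FPKM in shControl against 2.37 in shJAM3, on 54 and 37 fragments. MED28, MED29 and MED30, which like MED27 have been placed in the head, in the tail or between them, had ratios of 1.18, 1.13 and 1.01. MED28 shares 32.1% of its exon bases, mostly with FAM184B.

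The kinase module was on the lower side in every MED gene of it. MED12, which activates the module's kinase, was at 11.7 FPKM in shControl against 6.57 in shJAM3, on 1329 and 814 fragments, a ratio of 0.564 (0.516 to 0.616). MED12 (ENSG00000184634) lies on the plus strand of chromosome X at 71118556 to 71142454 and shares no exon bases with another gene. MED13, which links the module to the rest of Mediator, was at 6.90 and 5.95 FPKM (0.861, 0.797 to 0.931). Its paralogue MED13L was at 2.90 and 1.88 FPKM (ratio 0.647, 0.600 to 0.698), so its interval lay below that of MED13. The deposited length of MED13L is 37364 bases, against 8717 for its longest coding transcript, and that of MED13 is 12677 against 10465. In shControl MED13L had 1666 fragments and MED13 1344, so the order of their levels depends on the lengths used and is uncertain. MED12L, the paralogue of MED12, was below the level limit with 42 and 20 fragments, a ratio of 0.439 (0.244 to 0.764), and other genes cover 30.1% of its exon bases.

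The kinases and cyclin of the module, which carry other symbols, were divided. CDK19 was at 2.68 and 1.45 FPKM (ratio 0.541, 0.448 to 0.652), and its log2 ratio of -0.586 was only just past 1.5-fold on the lower side. Its paralogue CDK8 was at 9.75 and 10.7 FPKM (1.09, 0.972 to 1.23), and CCNC, the cyclin that both bind, was at 4.78 and 6.68 (1.40, 1.23 to 1.58). With these 3 genes added the Mediator median stayed at 0.02. POLRMT, the mitochondrial RNA polymerase, was listed with these further subunits and was at 67.3 and 42.2 FPKM (0.626, 0.600 to 0.654). Of the 8 listed subunits with other symbols, CDK19 and POLRMT were past 1.5-fold on the lower side and 0 on the higher. Among all measured genes 9.3% and 5.12% were.

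Of 5 tail genes 4 lay below 0, with a median log2 ratio of -0.42, but centred on GC content 2 of 5 did, with a median of 0.05. MED15, which activators bind, was at 12.4 and 8.06 FPKM (ratio 0.650, 0.606 to 0.696). MED16 was at 6.46 and 4.47 FPKM (0.692, 0.596 to 0.803) and MED25 at 7.95 and 5.69 (0.716, 0.649 to 0.790), while MED24 had a ratio of 0.970. MED23 was the exception at 2.62 and 3.69 FPKM (ratio 1.41, 1.22 to 1.64). Other genes, mostly PTOV1-AS1, cover 19.8% of the MED25 exon bases.

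The middle module was mostly on the higher side, with 7 of 9 genes above 0 and a median of 0.18. MED1, the subunit that nuclear receptors bind, was at 9.49 and 12.2 FPKM (ratio 1.28, 1.18 to 1.39). MED21 was at 6.48 and 9.37 FPKM (1.45, 1.25 to 1.67), MED4 at 5.08 and 7.17 (1.41, 1.17 to 1.71) and MED9 at 3.45 and 4.40 (1.27, 1.10 to 1.48). MED10, the most abundant Mediator transcript per length, was at 50.6 and 54.1 FPKM, with MED8 of the head next at 28.0 and 24.9. The intervals of MED7, MED10, MED19, MED26 and MED31 included 1. MED26, which connects Mediator to elongation factors, was at 1.78 and 1.57 FPKM, the lowest of the measured Mediator genes. MED26 and MED31 share 50.1% and 58.3% of their exon bases with other genes, so their levels are uncertain.

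The head split evenly, 3 of its 6 measured genes above 0 and 3 below. Centred on GC content, 4 lay above 0 and 2 below, with a median of 0.21. By that measure the middle module had 6 genes above 0 and 3 below, with a median of 0.20. MED6 was at 3.67 and 5.61 FPKM (1.53, 1.30 to 1.80) and MED20 at 8.30 and 10.6 (1.27, 1.12 to 1.45), while MED8 had a ratio of 0.889 (0.819 to 0.966). MED18, which pairs with MED20, was at 12.5 and 11.0 FPKM, MED22 at 13.8 and 13.4 and MED11 at 2.69 and 3.37, each with an interval that includes 1. Other genes cover 36.9% of the MED11 exon bases. MED17, a scaffold of the head, was under the level limit at 0.709 and 0.570 FPKM in spite of 181 and 158 fragments. Its deposited length is 16610 bases, the union of all annotated exons, against 2317 for its longest coding transcript, so its level per length is understated. MED14, the backbone, was at 11.7 and 10.9 FPKM (0.930, 0.869 to 0.994).

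**Figure D4:**
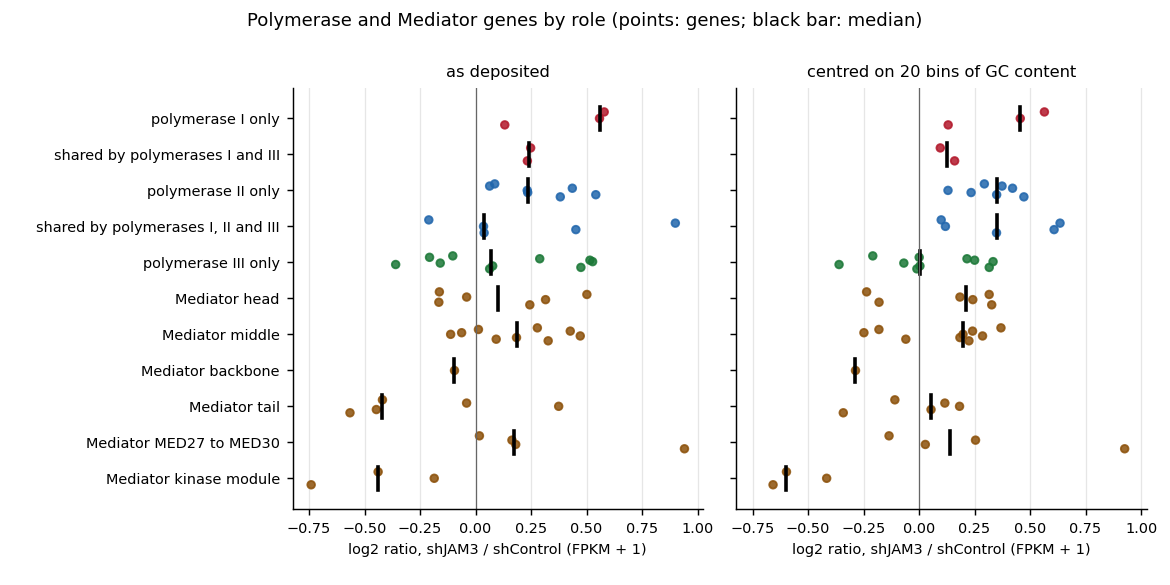
Log2 ratio (shJAM3 over shControl, FPKM + 1) for measured members by role, as deposited (left) and centred on the median of all measured protein-coding genes of like GC content (right), with black bars at medians. The MED genes of the kinase module lie below 0 in both panels, and the tail median moves from -0.42 to 0.05.

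The difference between the libraries followed the GC content of transcripts, and the members shared that trend. Across all measured protein-coding genes the correlation of GC content with the log2 ratio was -0.51 (Pearson, across 10496 genes), and across the 56 members it was -0.45. These points come from the same 2 libraries and are not replicates. Of 29 members with a GC content below 49.9%, the median of all measured genes, 22 lay above 0, and of the other 27, 15 did. Of the POLR3 genes, the 3 with the highest log2 ratios had GC contents from 37.3% to 43.5%. Whether GC content produced any of these differences was not tested.

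After each gene was centred on genes of like GC content, the medians were 0.16 for POLR1, 0.35 for POLR2, 0.00 for POLR3 and 0.09 for Mediator. By this measure 23 of 28 POLR genes lay above 0, against 49.9% of all measured genes, and 16 of 28 Mediator genes. All 5 POLR1 genes and 12 of 13 POLR2 genes were above 0. Past 1.5-fold were MED27 (0.93), POLR2K (0.63) and POLR2F (0.61) on the higher side, against 3.44% of all genes. MED12 (-0.66) and MED13L (-0.60) were past it on the lower side, against 5.25%. MED13 moved from -0.19 to -0.42, and the measured MED genes of the kinase module all stayed below 0. The tail genes MED16 and MED25, at 65.0% and 61.8% GC, moved from -0.45 to 0.05 and from -0.42 to -0.11, whereas MED15 moved from -0.57 to -0.34. Among the further subunits, CDK19 was at -0.78 after centring, CDK8 at -0.08, CCNC at 0.15 and POLRMT at -0.16. The median of the polymerase II general factors went from 0.24 to 0.10 and that of the polymerase III factors from -0.06 to 0.10.

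**Figure D5:**
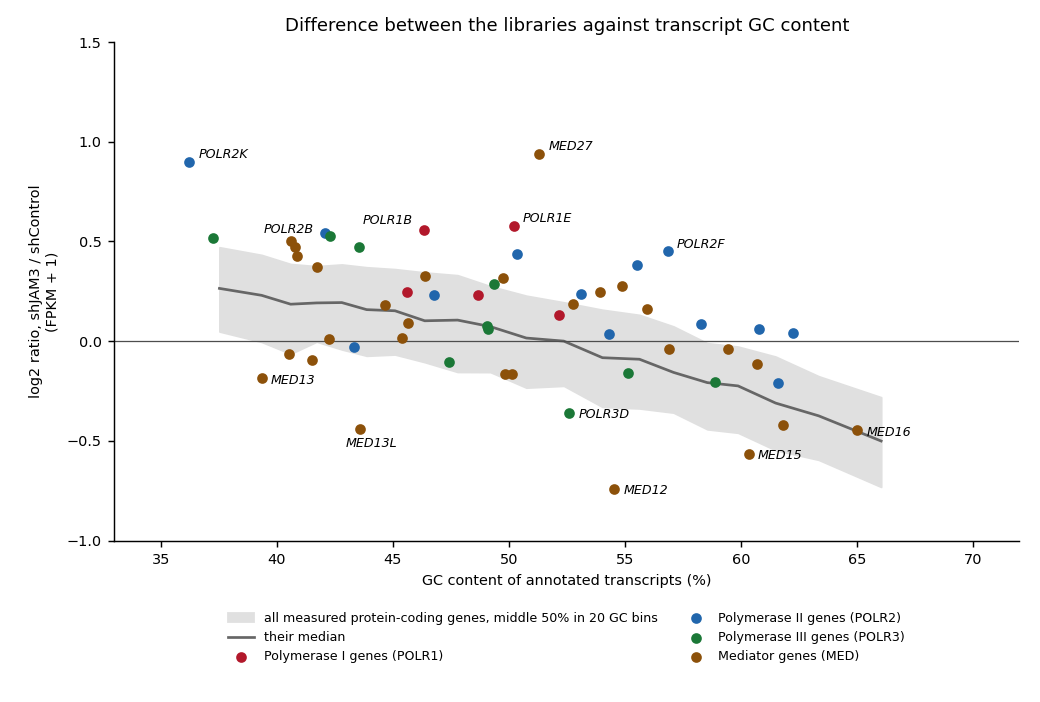
Log2 ratio (shJAM3 over shControl, FPKM + 1) against transcript GC content for the 56 measured members (coloured by complex), over the median (line) and middle 50% (grey) of all measured protein-coding genes in 20 GC bins. MED27, at 51.3% GC, lies far above the line, and MED12, at 54.6%, and MED13L, at 43.6%, lie below it.

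Promoter sequences were read from RefSeq (GRCh38.p14), which held an entry for 40 of the 56 measured members, as windows from 250 bases before to 50 after the start. The letters CCGGAAG, the core of an ETS factor site, occurred on either strand in 14 of the 40, 35.0%, against 10.3% of all 35116 windows. The letters GCGCNTGCG, most of an NRF1 site, occurred in 11 of 40, 27.5%, against 7.47%, and ATGGCGGC, the core of a YY1 site, in 8 of 40, 20.0%, against 3.00%. GGGCGG, the GC box, was found in 70.0% against 45.0%, CCAAT in 27.5% against 34.6%, the E-box CACGTG in 10.0% against 7.26% and TATAAA in 7.50% against 11.5%. For each member only the window nearest the annotated start of its gene was used, while the background took every window. The windows of all genes include those of noncoding and silent genes. The shares are therefore not like for like, and they describe letters, not bound sites.

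The part of the window that lies before both the RefSeq start and the first annotated base of the gene in GENCODE 29 is printed for 3 members: POLR1B, the polymerase I subunit gene discussed above, and the Mediator genes at the ends of the range. Capitals mark matches to the 7 patterns on either strand, and none of these overlapped.
POLR1B, chr2:112541786-112541914, plus strand: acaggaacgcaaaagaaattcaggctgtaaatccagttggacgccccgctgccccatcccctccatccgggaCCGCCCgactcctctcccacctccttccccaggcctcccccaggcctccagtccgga
MED27, chr9:132079909-132080117, minus strand: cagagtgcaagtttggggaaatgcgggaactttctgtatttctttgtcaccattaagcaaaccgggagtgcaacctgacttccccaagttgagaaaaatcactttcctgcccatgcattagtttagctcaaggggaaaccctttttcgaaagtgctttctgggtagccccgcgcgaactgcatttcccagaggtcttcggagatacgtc
MED12, chrX:71118346-71118555, plus strand: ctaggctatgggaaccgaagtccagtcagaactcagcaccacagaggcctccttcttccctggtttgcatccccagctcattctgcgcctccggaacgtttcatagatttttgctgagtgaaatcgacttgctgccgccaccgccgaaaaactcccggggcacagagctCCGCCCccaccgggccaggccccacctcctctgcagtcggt
POLR1B and MED12 each held 1 GC box in this stretch, and MED27, whose transcript had the highest ratio, held none of the 7 patterns. The whole POLR1B window also held an ETS core, counted above, which does not lie within the printed part. The GC content of the stretches was 64.3% for POLR1B, 48.3% for MED27 and 60.0% for MED12.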

How the data were processed

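The deposited table gives FPKM per gene for 1 shControl and 1 shJAM3 library, made by the authors. Among the tools in the submitters' processing notes are the aligner HISAT2 (2.0.5) and the counter featureCounts (1.5.0-p3). The notes do not say what each tool did, and the build is not given in the sources here. All 58735 deposited gene lengths equalled the exon union of that gene in GENCODE 29 (GRCh38), so coordinates are given there. FPKM times length came in whole steps of 1 size in each library for 100% of values above 0 (tolerance 0.001 fragments), which gave back the fragment numbers. Of rows with a repeated symbol the highest was kept for the background (57169 of 58735). Intervals are exact conditional binomial, and PCR copies make them too narrow. GC content, over each gene's annotated transcripts, could be had for 10496 of the 10499 measured protein-coding genes, which were put into 20 bins of equal number for centring. Shared exon bases were counted on both strands, since the library protocol as given marks no strand. Polymerases were compared by symbol. Every member entered the counts and medians, 2 genes are not reported here by name, and full values were given for members past 1.5-fold, the ends of each complex, large subunits and paralogues. The scripts were tested on simulated data (Python 3.11.15, pandas 2.3.3, scipy 1.17.1). The members and lists were chosen with earlier results of these data known.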

Additional observations from a re-analysis of the deposited data

How the results depend on the processing

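No paired analysis was possible because each group has 1 library, and leaving out a library was not possible for the same reason. The alternatives were another pseudocount, other level limits, scaling by total fragments or by median-of-ratios size factors, GC and length centring, grouping by composition, added or removed subunits, and leaving out the 8 members that share at least 20% of their exon bases (chosen after seeing the data). The POLR1 median stayed above 0, from 0.16 (GC centring) to 0.29 (0.1 FPKM added). The POLR2 median, 0.23, also stayed above 0 but ranged from 0.12 with no level limit to 0.35 with GC centring. The POLR3 median went from 0.07 to -0.13 with a mean of at least 5 FPKM, which leaves 6 genes. The Mediator median, 0.02, had no stable sign, at -0.01 with no level limit, -0.04 at 5 FPKM and 0.09 with GC centring. No error of a median could be had from 1 library a group. The count past 1.5-fold on the higher side, 2, was 7 with 0.1 FPKM added and 4 with scaling by total fragments. The count on the lower side, 1, was 3 with 0.1 FPKM added and 2 with GC centring, and the cause of these shifts was not tested. No member reached 2-fold under any of these. Of 61 member rows, GC centring moved 19 beyond their counting error and the pseudocount 1, and no called member changed sign. The median of all measured protein-coding genes stayed between -0.03 and 0.03. Depth limits POLR2J2, POLR2J3 and MED12L, with 1 to 42 fragments.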
